A study of Mus musculus with 16 samples.

Results

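The genes described here are 37 genes of fatty acid oxidation, ketone body metabolism and other targets of the nuclear receptor PPARA, measured in mouse liver. They were chosen by name, with earlier results of these data known, and all 37 were found among the 13006 genes of the deposited table. All 37 also passed the filter on low counts, which kept 12918 genes. By the place of their products, 21 are mitochondrial and 7 are peroxisomal (Ehhadh, Acaa1a, Acaa1b, Abcd3, Pex11a, Decr2 and Acot4). Eci2 is found in both organelles, 3 members are microsomal (Cyp4a10, Cyp4a14 and Aldh3a2), and the other 5 are Ppara, Acot1, Vnn1, Plin2 and Angptl4.

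Poly(A) RNA was sequenced from the livers of mice labelled Humanized PXR-CAR-CYP3A4/3A7, a genotype that all 16 libraries share. CV mice received propylene glycol, the vehicle of the injection. EV mice were injected under the skin for 7 days with 10 mg/kg of ethinylestradiol (EE), an estrogen made by synthesis and used to bring on cholestasis. CM mice received MI763F, a ligand of the nuclear receptor CAR known by its code name, by gavage at 2.5 mg/kg for 6 days from day 2, and EM mice received both agents at those doses. Each group has 4 libraries. The labels give no age, are silent on an oral carrier for mice without MI763F, and do not tie a library to an animal, so p-values measure the spread between these libraries, which may be technical. The comparisons ask what EE changed in these genes, what MI763F changed in mice with and without EE, and if its change depended on EE.

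Mitochondrial β-oxidation begins when long fatty acids, joined to carnitine, cross the inner membrane. Acyl-CoA dehydrogenases, a hydratase, a hydroxyacyl-CoA dehydrogenase and a thiolase then shorten the chain round by round, electrons leave through the electron transfer flavoproteins, and in liver much of the acetyl-CoA becomes ketone bodies. Peroxisomes shorten very long and dicarboxylic fatty acids, which the microsomal Cyp4a enzymes produce by omega oxidation. PPARA, activated by fatty acids in fasting, is known to raise the transcription of genes in all of these steps.

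The libraries held 14115384 to 21473227 estimated counts each. Levels are given below as CPM, the count as a share of the library total after scaling by composition (TMM) factors, which were 0.833 to 0.91 in libraries without EE and 1.1 to 1.23 in libraries with EE. On the second principal component CM replicate 2 lay away from the other CM libraries (-58.9 against -16.1 to -7.98). On the same component CV replicates 1 and 2 (35.6 and 45.2) lay away from CV replicates 3 and 4 (1.13 and 1.47). On the first component EM replicate 1 lay nearest the EV libraries (62.6, against 37.1 to 46.7 for the other EM libraries). Hepatocyte markers summed to 156600.1 to 190397 CPM in the CV libraries, and all 18 of them were in the table, as the labelled tissue would have it.

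Relative to the other genes of each library, EE lowered most of the genes of fatty acid oxidation and raised a few. With EE alone, 24 of the 37 members fell and 5 rose (edgeR's quasi-likelihood test, EV against CV, adjusted p under 0.05), where 24.9% of all genes fell and 25.5% rose. The median member changed by -0.44 on the log2 scale, and the median of all genes by 0.00412. The falls ran from Acadvl (-0.29 ± 0.081 SE) to Acot4 (-2.29 ± 0.19), and the rises were Pdk4, Ehhadh, Plin2, Angptl4 and Pex11a. The EV and CV libraries did not overlap for 21 members that were lower and 4 that were higher with EE, against 22.7% and 24.6% of all genes.

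This count depends on the scaling. When libraries were scaled by their totals alone, the median of all genes shifted by 0.489 with EE, and 84.1% of the called genes were higher in place of 50.5%. Under that scaling 12 members fell and 10 rose, where 10.3% of all genes fell and 54.6% rose. The median member stood at 0.04, below the shifted median of all genes. The 12 members that fell under both scalings were Acot4, Hadh, Acaa1b, Cyp4a10, Echs1, Acadl, Eci1, Decr2, Etfa, Acaa2, Etfb and Acads. Pdk4, Ehhadh, Plin2, Angptl4 and Pex11a rose under both. Directions are therefore relative to the other genes of each library.

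**Figure D1:**
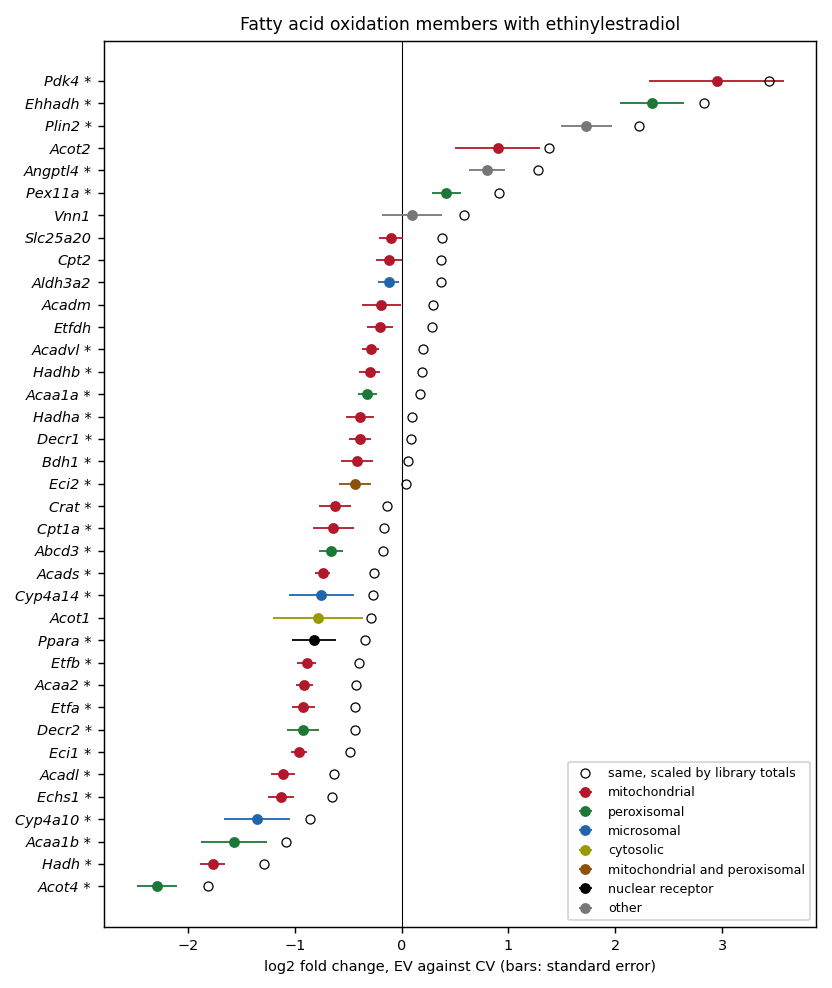
Log2 fold change of all 37 members, EV against CV, with filled points for the TMM-scaled fit, bars for the standard error, colours for the compartment and a star where the adjusted p was under 0.05. Open points are the same values with libraries scaled by their totals: they lie to the right of the filled points for each member, and 12 of the members that fell stay below 0 and called.

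Other markers moved in the same libraries. The shares of all genes to set beside them are 25.5% higher and 24.9% lower with EE, or 54.6% and 10.3% with library totals. With EE, 12 of 18 hepatocyte markers fell and 1 rose (10 fell and 3 rose with library totals), and their summed level was 72519.5 to 87679 CPM in EV. Of 13 macrophage markers 11 rose (12 with library totals), their sum going from 384 to 986 CPM in CV to 2303 to 2693 CPM in EV. Of the other lists, 5 of 5 erythroid markers rose, 7 of 11 endothelial (10 with library totals), 5 of 8 lymphoid and neutrophil (6) and 2 of 5 cholangiocyte markers, while of 12 stellate cell markers 4 rose and 2 fell (5 and 0). The summed erythroid level was 984 to 1967 CPM in CV and 2527 to 3469 CPM in EV, and the endothelial one 125 to 259.6 CPM and 294 to 336 CPM. The lymphoid and neutrophil sum was 11.3 to 27.8 CPM in CV and 78.3 to 159 CPM in EV, all 3 sums being higher in every EV library than in any CV library. The adipocyte list had only Fabp4 in the table, which rose from 10.7 ± 3.4 to 1033 ± 370 CPM (SD, n = 4). Of 13 genes of a fasting and glucocorticoid list, 4 rose and 5 fell (5 and 2 with library totals). Their sum was 3550.4 to 6009 CPM in CV and 5348 to 6424 CPM in EV, with overlap. In bulk tissue, fewer hepatocytes and less RNA per hepatocyte cannot be told apart, and the part of these markers in the members' changes was not tested.

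Ppara encodes the receptor itself. Its level was 25.5, 20.5, 29.1 and 33.7 CPM in the CV libraries, in order of replicate, and 15, 15.3, 16.2 and 15.2 CPM in the EV libraries. All 4 EV libraries lay below all 4 CV libraries, and Ppara fell by 0.82 ± 0.21 on the log2 scale (adjusted p = 0.00421). With library totals the difference was -0.34 and did not pass (adjusted p = 0.175). CM libraries held 25.5, 17.6, 29.2 and 22.7 CPM and EM libraries 14.1, 9.7, 20.6 and 12.2 CPM, of which only EM replicate 3 reached the CV range.

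Among the carnitine shuttle genes, Cpt1a and Crat fell with EE and Cpt2 and Slc25a20 did not pass the test. Cpt1a, the outer membrane carnitine palmitoyltransferase that sets the rate of entry, stood at 137, 84.5, 194 and 165 CPM in CV and at 89.4, 99.7, 85.3 and 98.8 CPM in EV. CV replicate 2 lay below every EV library and the other CV libraries above them, and the fall was 0.64 ± 0.19 on the log2 scale (adjusted p = 0.0103, or -0.16 and adjusted p = 0.498 with library totals). In CM it stood at 150.0, 125, 137 and 149 CPM and in EM at 101, 101, 94.6 and 72.7 CPM. Crat, which exchanges acyl groups between carnitine and CoA, held 45, 34.4, 48.5 and 35.3 CPM in CV and 22.8, 30.9, 25.6 and 26.5 CPM in EV. The libraries did not overlap and Crat fell by 0.62 ± 0.15 (adjusted p = 0.00298, or -0.14 and adjusted p = 0.435 with library totals). In CM it was higher, at 74.8, 75.7, 54.5 and 52.8 CPM, and in EM it was 19.3, 25.2, 24 and 23.9 CPM. Cpt2 (-0.12 ± 0.12) and the carnitine-acylcarnitine carrier Slc25a20 (-0.10 ± 0.11) turned to rises of 0.37 and 0.38 with library totals.

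The enzymes of the mitochondrial β-oxidation round fell in 8 of 9 cases, where 24.9% of all genes fell. With library totals 2 of 4 acyl-CoA dehydrogenases and 3 of 5 later enzymes fell, where 10.3% of all genes fell. Of the dehydrogenases that open the round, Acadl (long chain) fell most, from 204 ± 21 to 94.4 ± 7.3 CPM (SD, n = 4; -1.11 ± 0.11, adjusted p = 9.89e-07). Acads (short chain) fell from 126 ± 4.9 to 75.4 ± 2.2 CPM (-0.74 ± 0.074, adjusted p = 1.14e-06). Acadvl (very long chain) changed by -0.29 ± 0.081, a call that turned to 0.20 with library totals and was then lost. Acadm (medium chain), at 319.8 ± 68 CPM in CV and 279.9 ± 29 CPM in EV, did not pass (-0.19 ± 0.18, adjusted p = 0.39).

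Hadh, the hydroxyacyl-CoA dehydrogenase for short and medium chains, showed the largest fall among the mitochondrial members. It stood at 263, 285, 347 and 317 CPM in CV and at 72.3, 88.2, 103 and 90.6 CPM in EV. Every EV library lay far below every CV library, and Hadh fell by 1.77 ± 0.12 on the log2 scale (3.42-fold, adjusted p = 4.37e-08). CM libraries resembled CV, at 310.2, 286, 337 and 354 CPM. The EM libraries, at 132, 174, 164 and 154 CPM, lay between EV and CV without overlapping either.

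Echs1, the short-chain enoyl-CoA hydratase that acts just before Hadh, held 253, 255, 273 and 280.2 CPM in CV and 124, 115, 118 and 126 CPM in EV. It fell by 1.13 ± 0.12 (adjusted p = 2.46e-06). In CM it was 222, 224, 278 and 311 CPM, around the CV values, and in EM 133, 165, 194 and 180.4 CPM, above every EV library. The thiolase Acaa2, which splits off acetyl-CoA, stood at 705, 729, 750.0 and 728 CPM in CV against 377, 380.3, 401 and 386 CPM in EV. Its libraries are tightly grouped, and it fell by 0.91 ± 0.079 (adjusted p = 2.94e-07). The CM values were 795, 811, 722 and 724 CPM and the EM values 435, 541, 499 and 553 CPM, again between EV and CV.

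Hadha and Hadhb encode the subunits of the trifunctional protein, which carries out the later steps for long chains. Hadha changed by -0.39 ± 0.13 (adjusted p = 0.0223) and Hadhb by -0.30 ± 0.1 (adjusted p = 0.0268), and with library totals they stood at 0.10 and 0.19 and did not pass. The Hadha call was also lost without CV replicate 3 (-0.309, adjusted p = 0.0745) or EV replicate 3 (-0.359, adjusted p = 0.052). That of Hadhb was lost without CV replicate 1 (-0.285, adjusted p = 0.056), EV replicate 1 (-0.272, adjusted p = 0.0621) or EV replicate 4 (-0.272, adjusted p = 0.0609). These genes lie head to head on chromosome 5, with 272 bases between their RefSeq start sites on GRCm38.p6.

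Auxiliary enzymes that let unsaturated fatty acids enter the round also fell, in 4 of 4 cases (2 of 4 with library totals). Of all genes 24.9% fell (10.3% with library totals). Eci1, a mitochondrial enoyl-CoA isomerase, stood at 146, 165, 174 and 157 CPM in CV and 75.9, 85.7, 87.8 and 79.5 CPM in EV. The groups were well apart, and Eci1 fell by 0.96 ± 0.076 (adjusted p = 1.27e-07). It was 184, 191, 199 and 198 CPM in CM, above every CV library, and 89.9, 107, 100.3 and 104 CPM in EM, above every EV library. The dienoyl-CoA reductases Decr1 (mitochondrial, -0.39 ± 0.1) and Decr2 (peroxisomal, -0.92 ± 0.15) and the isomerase Eci2 (-0.44 ± 0.15) completed the set. With library totals Decr2 stayed called at -0.44, while Decr1 (0.09) and Eci2 (0.04) changed sign. Eci2 was also lost without CV replicate 1 (-0.364, adjusted p = 0.0664), CV replicate 3 (-0.377, adjusted p = 0.0608) or EV replicate 1 (-0.372, adjusted p = 0.0668).

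Both subunits of the electron transfer flavoprotein fell. Etfb held 655, 627, 545 and 594 CPM in CV and 326, 322, 356 and 305 CPM in EV, and fell by 0.89 ± 0.086 (adjusted p = 8.63e-07). It was 563, 652, 645 and 647 CPM in CM and 412, 467, 382 and 430.2 CPM in EM, where every library lay above every EV library. Etfa, the partner subunit, fell from 408 ± 30 to 215 ± 6 CPM (SD, n = 4; -0.92 ± 0.11, adjusted p = 4.04e-06). Etfdh, which passes the electrons on to ubiquinone, was at 157 ± 26 and 136 ± 8.7 CPM and did not pass (-0.20 ± 0.12, or a rise of 0.28 with library totals).

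Peroxisomal genes moved in both directions. Ehhadh, the bifunctional enzyme of peroxisomal β-oxidation, stood at 86.7, 126, 179 and 119 CPM in CV and at 724, 685, 601 and 569.7 CPM in EV. The libraries lay far apart and Ehhadh rose by 2.34 ± 0.3 on the log2 scale (5.05-fold, adjusted p = 1.61e-05). In CM it was 125, 369.9, 137 and 169 CPM, of which only replicate 2 lay above the CV range, and in EM 398, 409, 352 and 429.8 CPM.

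Acaa1b, a peroxisomal thiolase, went the other way, from 298, 529, 595 and 422 CPM in CV to 106, 237, 184 and 95 CPM in EV. It fell by 1.57 ± 0.31 (adjusted p = 0.000634). Its CM values, 416, 733, 559.9 and 946 CPM, were widely spread, and in EM it held 210.1, 261, 239.8 and 249 CPM. The neighbouring thiolase Acaa1a changed by only -0.32 ± 0.091 (adjusted p = 0.00917), which turned to 0.17 with library totals. The 2 thiolase genes are close copies, so the division of reads between them is uncertain. Abcd3, a transporter that brings fatty acids into the peroxisome, fell by 0.66 ± 0.11 (adjusted p = 0.000143), which library totals did not call (-0.17).

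Pex11a, which takes part in the division of peroxisomes, stood at 64.3, 49.4, 78.1 and 54.1 CPM in CV and at 72.2, 94.6, 86.2 and 76.9 CPM in EV. The groups overlap at CV replicate 3, and the rise was 0.42 ± 0.14 (adjusted p = 0.0205). It was lost without CV replicate 2 (0.333, adjusted p = 0.0674), CV replicate 4 (0.367, adjusted p = 0.0628), EV replicate 2 (0.339, adjusted p = 0.0797) or EV replicate 3 (0.391, adjusted p = 0.0538). CM held 87.5, 70.7, 66.6 and 64.6 CPM and EM 69.4, 81.2, 64.5 and 72.2 CPM, within the range of the other groups.

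The microsomal omega hydroxylases Cyp4a10 and Cyp4a14 were lower with EE. Of 6 other omega oxidation genes 3 rose and 1 fell, where 25.5% of all genes rose and 24.9% fell. With library totals 4 of them rose and 1 fell, where 54.6% of all genes rose and 10.3% fell. Cyp4a10 stood at 259, 392, 499 and 334 CPM in CV and 110.1, 168, 195 and 109 CPM in EV, and fell by 1.35 ± 0.31 (adjusted p = 0.00194). It held 711, 1005, 517 and 531 CPM in CM, every library above the CV range, and 147, 355, 195 and 195 CPM in EM. Cyp4a14 stood at 624, 674, 795 and 682 CPM in CV and 308, 452, 521 and 367 CPM in EV (-0.75 ± 0.3, adjusted p = 0.0489). This call sat at the threshold. It was lost with library totals (-0.27), with no low count filter, and without CV replicate 1 (-0.8, adjusted p = 0.063), CV replicate 2 (-0.766, adjusted p = 0.0735), CV replicate 3 (-0.68, adjusted p = 0.105), CV replicate 4 (-0.76, adjusted p = 0.0762), EV replicate 1 (-0.645, adjusted p = 0.12), EV replicate 2 (-0.81, adjusted p = 0.0652) or EV replicate 4 (-0.714, adjusted p = 0.0985). Cyp4a14 held 1150.5, 2201, 945 and 781 CPM in CM and 346, 819.6 and 644 CPM in EM replicates 1 to 3 (mean 596 ± 196 CPM, SD, n = 4), with replicate 2 the highest in both groups. Aldh3a2, the fatty aldehyde dehydrogenase that completes omega oxidation, stood at 213, 224, 245 and 244 CPM in CV and 199, 234, 231 and 190.2 CPM in EV. It did not pass (-0.12 ± 0.1, adjusted p = 0.37) and turned to a rise of 0.37 with library totals. Its CM values were 301, 322, 249 and 295 CPM, and its EM values 189.8, 245, 225 and 239.6 CPM.

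For ketone bodies the list holds Bdh1, the β-hydroxybutyrate dehydrogenase, which fell from 192 ± 29 to 144 ± 13 CPM (SD, n = 4; -0.42 ± 0.15, adjusted p = 0.0272). It stood at 0.06 with library totals, and its call was lost without CV replicate 3 (-0.368, adjusted p = 0.0717), CV replicate 4 (-0.356, adjusted p = 0.0797), EV replicate 1 (-0.386, adjusted p = 0.0669) or EV replicate 2 (-0.401, adjusted p = 0.0607). Pdk4, a kinase that restrains pyruvate dehydrogenase and so spares glucose while fat is burned, rose. Its level was 5.27, 5.27, 7.9 and 2.95 CPM in CV and 19.2, 40.1, 47.8 and 58 CPM in EV. All EV libraries lay above CV and the rise was 2.95 ± 0.63 on the log2 scale (7.73-fold, adjusted p = 0.00145), with a wide error. In CM it stood at 13.1, 54.2, 16.4 and 8.04 CPM and in EM at 20.1, 53.2, 25.6 and 14 CPM, each with replicate 2 far above the others.

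The acyl-CoA thioesterases, which free fatty acids from CoA, differed from each other. Acot4, peroxisomal, stood at 36.8, 30.3, 35.5 and 35 CPM in CV and at 5.99, 7.59, 9.42 and 5.1 CPM in EV. The groups were far apart, and it fell by 2.29 ± 0.19, the largest fall of the 37 (4.91-fold, adjusted p = 1.6e-07). It held 37.3, 33.8, 29.9 and 39.9 CPM in CM and 7.32, 11.4, 10.4 and 7.63 CPM in EM, so the level followed EE. Acot1, cytosolic, was at 31.2, 43.7, 58.8 and 27.8 CPM in CV and 16, 22.2, 33.5 and 22.4 CPM in EV, and did not pass (-0.78 ± 0.42, adjusted p = 0.141). Its CM values were 71.1, 207, 51.3 and 85.8 CPM, with replicate 2 far above the rest, and its EM values 18.9, 35.6, 15.2 and 16.9 CPM. Acot2, mitochondrial, was at 6.11 ± 2.5 and 11.4 ± 3.5 CPM and did not pass (0.90 ± 0.4, adjusted p = 0.074), but rose with library totals (1.38). Acot1, Acot2 and Acot4 are neighbours on chromosome 12, and Acot1 and Acot2 are close copies whose reads may be divided between them.

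Of the remaining PPARA targets, Plin2 and Angptl4 rose with EE and Vnn1 did not pass. Plin2, which coats lipid droplets, stood at 217, 140.4, 286 and 193 CPM in CV and 692, 712, 650.4 and 729.8 CPM in EV. It rose by 1.73 ± 0.24 on the log2 scale (3.33-fold, adjusted p = 2.88e-05). In CM it held 295, 356, 337 and 221 CPM, and in EM 632, 467, 324 and 301 CPM, a wide spread that stayed below EV. Angptl4, a secreted inhibitor of lipoprotein lipase, held 66, 63.7, 40.5 and 43.4 CPM in CV and 88, 91.6, 94.8 and 96.1 CPM in EV, and rose by 0.80 ± 0.17 (adjusted p = 0.00121). It was 65.4, 84.8, 76.7 and 60.5 CPM in CM and 82.3, 76.3, 60.5 and 53.6 CPM in EM, below every EV library. Vnn1, a pantetheinase, was at 39.8 ± 13 and 42.7 ± 5.7 CPM (0.10 ± 0.28, adjusted p = 0.792).

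**Figure D2:**
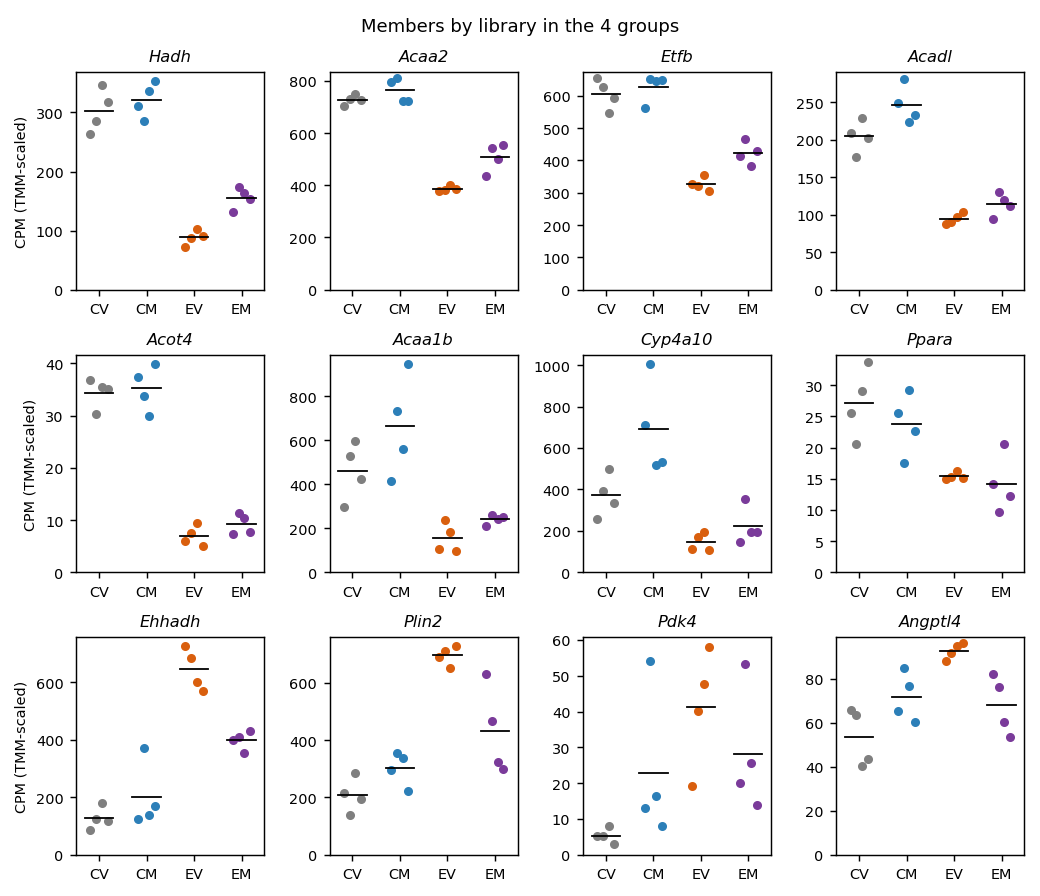
CPM (TMM-scaled, linear axes from 0) of 12 members in each of the 16 libraries, 1 point per library and a bar at the group mean. The upper and middle rows show members that were lower in EV than in CV, with Hadh, Acaa2 and Etfb between EV and CV in EM, and the bottom row shows Ehhadh, Plin2, Pdk4 and Angptl4, which were higher in EV.

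PPARA binds DNA with its partner RXR at AGGTCA repeats set 1 base apart, known as DR1 elements. RefSeq start site windows (GRCm38.p6, 250 bases before to 50 after the start, an earlier build than that of the counts) were found for 30 of the 37 members, in 32 windows. The exact repeat (AGGTCA, any base, AGGTCA), searched on both strands, was in the window of 0 members and in 0.0396% of all 32851 windows. A looser form (AGGNCA, any base, AGGNCA), which includes it, was in 0 members and 0.381% of windows. The exact repeat with A as the middle base was in 0 members and 0.0152% of windows. A search that allowed up to 2 mismatches in the 12 fixed letters of the exact repeat was chosen after these counts were seen. It matched 5 members (Plin2, Echs1, Etfa, Acot4 and Slc25a20), where 3.86% of all windows matched.

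The 250 bases before the start are shown for Plin2, which rose with EE, and for Echs1, Etfa and Acot4, which fell, to let the matched letters (capitals) be compared, each 5′ to 3′ on the strand of its gene. The matches run along the gene's strand in Echs1 and against it in Plin2, Etfa and Acot4. Hadha is shown as the stretch between the head-to-head starts of Hadha and Hadhb and holds no capitals. They lie at chr4:86670060-86670309 (Plin2, minus strand), chr7:140116422-140116671 (Echs1, minus), chr9:55512244-55512493 (Etfa, minus), chr12:84038129-84038378 (Acot4, plus) and chr5:30154981-30155230 (Hadha, minus).
Plin2: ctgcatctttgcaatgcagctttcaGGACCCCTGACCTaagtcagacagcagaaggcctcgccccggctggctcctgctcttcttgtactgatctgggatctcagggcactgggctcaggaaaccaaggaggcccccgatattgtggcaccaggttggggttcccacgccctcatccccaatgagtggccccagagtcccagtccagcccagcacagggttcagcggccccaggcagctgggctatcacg
Echs1: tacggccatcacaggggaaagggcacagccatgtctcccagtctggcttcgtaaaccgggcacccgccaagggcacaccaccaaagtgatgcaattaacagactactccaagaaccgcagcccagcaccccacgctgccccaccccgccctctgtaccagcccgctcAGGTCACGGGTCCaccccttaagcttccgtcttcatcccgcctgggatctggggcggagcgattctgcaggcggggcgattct
Etfa: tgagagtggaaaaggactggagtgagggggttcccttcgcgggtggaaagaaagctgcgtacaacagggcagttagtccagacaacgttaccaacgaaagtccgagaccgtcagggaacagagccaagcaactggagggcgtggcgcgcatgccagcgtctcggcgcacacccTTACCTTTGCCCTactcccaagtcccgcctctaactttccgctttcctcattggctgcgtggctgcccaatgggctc
Acot4: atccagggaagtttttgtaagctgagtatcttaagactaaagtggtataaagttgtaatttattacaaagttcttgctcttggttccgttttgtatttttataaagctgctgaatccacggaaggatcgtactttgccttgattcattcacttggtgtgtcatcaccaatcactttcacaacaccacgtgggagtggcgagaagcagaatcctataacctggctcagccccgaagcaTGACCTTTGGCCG
Hadha: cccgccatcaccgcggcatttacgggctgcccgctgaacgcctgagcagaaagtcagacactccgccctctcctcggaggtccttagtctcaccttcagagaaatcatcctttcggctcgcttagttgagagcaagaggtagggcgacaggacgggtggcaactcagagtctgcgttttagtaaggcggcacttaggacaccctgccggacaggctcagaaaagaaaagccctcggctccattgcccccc
The match lies 225 to 213 bases before the start in Plin2, 83 to 71 in Echs1, 77 to 65 in Etfa and 13 to 1 in Acot4. Its members rose (Plin2), fell (Echs1, Etfa, Acot4) or did not pass (Slc25a20) with EE. A match is a description of letters in these windows and not a measured site.

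Mitochondrial and peroxisomal members did not separate by direction. With EE, 15 of the 21 mitochondrial members fell and 1, Pdk4, rose, with a median of -0.42. Of the 7 peroxisomal members 5 fell and 2, Ehhadh and Pex11a, rose, with a median of -0.66. Of all genes 24.9% fell and 25.5% rose. With library totals 8 mitochondrial members fell and 5 rose (median 0.06), and 3 peroxisomal members fell and 2 rose (median -0.17). Under that scaling 10.3% of all genes fell and 54.6% rose. The peroxisomal values ran from -2.29 (Acot4) to 2.34 (Ehhadh) and the mitochondrial ones from -1.77 (Hadh) to 2.95 (Pdk4). In the wider list described below, the medians stood in the other order. Of 11 other mitochondrial oxidation genes 8 fell and 1 rose (median -0.93). Of 22 other peroxisomal oxidation genes 10 fell and 2 rose (median -0.24). With library totals 6 of these mitochondrial genes fell and 1 rose (median -0.44). Of these peroxisomal genes 5 then fell and 9 rose (median 0.25). Members are not replicates, and the difference between the 2 organelles was not tested.

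**Figure D3:**
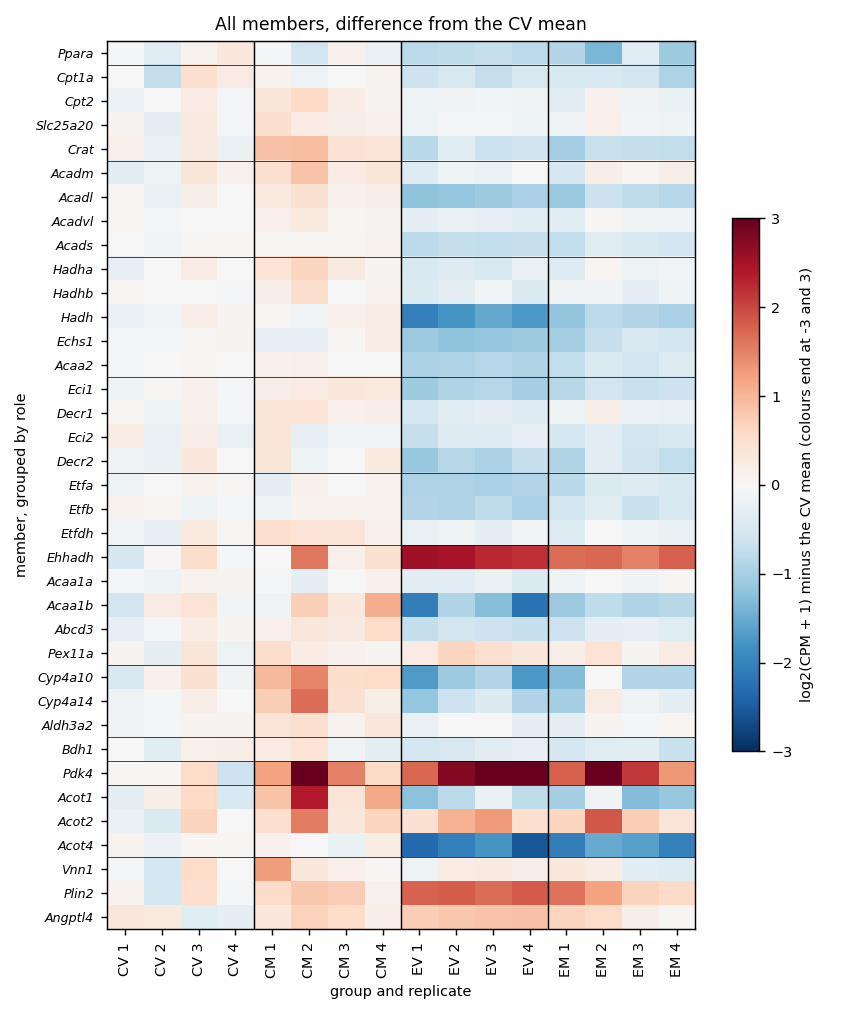
Difference of log2(CPM + 1) from the CV mean for the 37 members (rows, grouped by role) in the 16 libraries (columns), blue for lower and red for higher, with colours ending at -3 and 3. EV and EM columns are blue for most of the mitochondrial rows and red for Ehhadh, Pdk4 and Plin2, and CM replicate 2 is red for Ehhadh, Cyp4a10, Cyp4a14, Pdk4, Acot1 and Acot2.

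Without EE, MI763F changed none of the 37 members at the threshold (0 called by edgeR, where 0.0929% of all genes were called, all of them higher). At an unadjusted p under 0.05, 19 members were higher and 0 lower, against 5.98% and 4.56% of all genes. DESeq2, at the adjusted threshold, called 4 members (Acot1, Crat, Eci1 and Pdk4), where it called 221 of all 12918 genes. The median member stood at 0.27, with 32 of 37 above 0, where the median of all genes was -0.00299. The spread between libraries was large next to the difference for some members, such as Acaa1b (0.53 ± 0.3 SE), and small for others, such as Crat (0.66 ± 0.15). Without CM replicate 2, which lay apart on the second principal component, 9 members had an unadjusted p under 0.05 in place of 19. Of all genes 9.26% then had such a p, in either direction, in place of 10.5%. The median of the members was then 0.237. Without CV replicate 1, 2 or 4 the members numbered 13, 13 and 14 (medians 0.268, 0.233 and 0.258). The shares of all genes were 9.3%, 9.34% and 11.1%. Leaving out any other CM or CV library gave 17 to 20 members, and 10.2% to 12.2% of all genes.

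The smallest p-values without EE were those of Crat, Eci1, Pdk4 and Aldh3a2, and for each of these every CM library lay above every CV library. Only Cyp4a10 did the same among the others, which makes 5 of 37 where 2.24% of all genes did. Crat was 0.66 ± 0.15 higher on the log2 scale (adjusted p = 0.13), Eci1 0.27 ± 0.075 (adjusted p = 0.211) and Aldh3a2 0.33 ± 0.1 (adjusted p = 0.258). Without CM replicate 2 they stood at 0.572, 0.274 and 0.281. Pdk4 was at 2.10 ± 0.62 (adjusted p = 0.239) and Acot1 at 1.37 ± 0.42 (adjusted p = 0.263). These rested in part on CM replicate 2, since without it Pdk4 stood at 1.22 and Acot1 at 0.783. The same holds for Cyp4a10 (0.90 to 0.66), Cyp4a14 (0.87 to 0.467), Acot2 (0.87 to 0.506) and Ehhadh (0.65 to 0.17).

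In mice with EE, MI763F raised Hadh, Acaa2 and Etfb. They are 3 of the 37 members, all mitochondrial, and 0 members fell, where 1.51% of all genes rose and 0.178% fell (EM against EV). Hadh rose from 88.6 ± 13 to 156 ± 18 CPM (SD, n = 4; 0.82 ± 0.12 on the log2 scale, 1.76-fold, adjusted p = 0.00452) and was called under every alternative setting and with any single library left out. Acaa2 rose from 386 ± 11 to 507 ± 53 CPM (0.39 ± 0.078, adjusted p = 0.0226) and Etfb from 327 ± 21 to 423 ± 36 CPM (0.37 ± 0.085, adjusted p = 0.0426). All 4 EM libraries lay above all 4 EV libraries for these 3 genes. The Hadh level in EM was still below CV (-0.96 ± 0.12, adjusted p = 2.35e-05), as were those of Acaa2 (-0.52 ± 0.078, adjusted p = 9.55e-05) and Etfb (-0.52 ± 0.085, adjusted p = 0.000207), although with library totals the last 2 did not pass (-0.15 and -0.14).

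The calls of Acaa2 and Etfb rest on many libraries together. With library totals Acaa2 stood at 0.28 (adjusted p = 0.0982) and Etfb at 0.26 (adjusted p = 0.191). Fitted on only the EM and EV libraries, Acaa2 stood at 0.385 (adjusted p = 0.0599) and Etfb at 0.361 (adjusted p = 0.0589), and Ehhadh was called lower in EM (-0.707, adjusted p = 0.0202). Acaa2 was also lost without EV replicate 1 (0.377, adjusted p = 0.0997), 2 (0.382, adjusted p = 0.102) or 4 (0.393, adjusted p = 0.0619), or EM replicate 2 (0.36, adjusted p = 0.0734), 3 (0.401, adjusted p = 0.0713) or 4 (0.344, adjusted p = 0.11). Etfb was lost without EV replicate 1 (0.361, adjusted p = 0.146), 2 (0.358, adjusted p = 0.153), 3 (0.408, adjusted p = 0.0544) or 4 (0.336, adjusted p = 0.135), or EM replicate 2 (0.318, adjusted p = 0.122), 3 (0.415, adjusted p = 0.0682) or 4 (0.356, adjusted p = 0.152). In the other direction, without EM replicate 1, the library nearest EV, 8 members were called, 7 higher and 1 lower. Calls over all genes also grew, to 376 higher and 69 lower of 12945, in place of 195 and 23 of 12918. Echs1 (0.571, adjusted p = 0.0109), Etfa (0.494, adjusted p = 0.0109), Eci1 (0.337, adjusted p = 0.0245) and Acads (0.275, adjusted p = 0.0288) were then higher in EM, and Plin2 lower (-0.936, adjusted p = 0.0322).

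Short of the threshold, further members pointed back toward CV. Echs1 was 0.47 ± 0.12 higher in EM than in EV (adjusted p = 0.0659), Etfa 0.41 ± 0.1 (adjusted p = 0.0659) and Eci1 0.29 ± 0.076 (adjusted p = 0.0762). Among the genes that EE raised, Ehhadh stood at -0.70 ± 0.29 (adjusted p = 0.312), Plin2 at -0.69 ± 0.24 (adjusted p = 0.186) and Angptl4 at -0.44 ± 0.17 (adjusted p = 0.256). EM and EV libraries did not overlap for 8 members that were higher (Hadh, Echs1, Acaa2, Eci1, Decr1, Etfa, Etfb and Acaa1a) and for 3 that were lower (Ehhadh, Plin2 and Angptl4), against 6.56% and 3.98% of all genes. This comparison shares the EV libraries with EV against CV, so a high or low EV library moves both in opposite directions. By compartment, the median was 0.18 over the mitochondrial and 0.27 over the peroxisomal members. Hepatocyte markers summed to 88838 to 100081 CPM in EM, above the 72519.5 to 87679 CPM of EV, and 2 of the 18 rose. Their part in the members' rises was not tested.

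**Figure D4:**
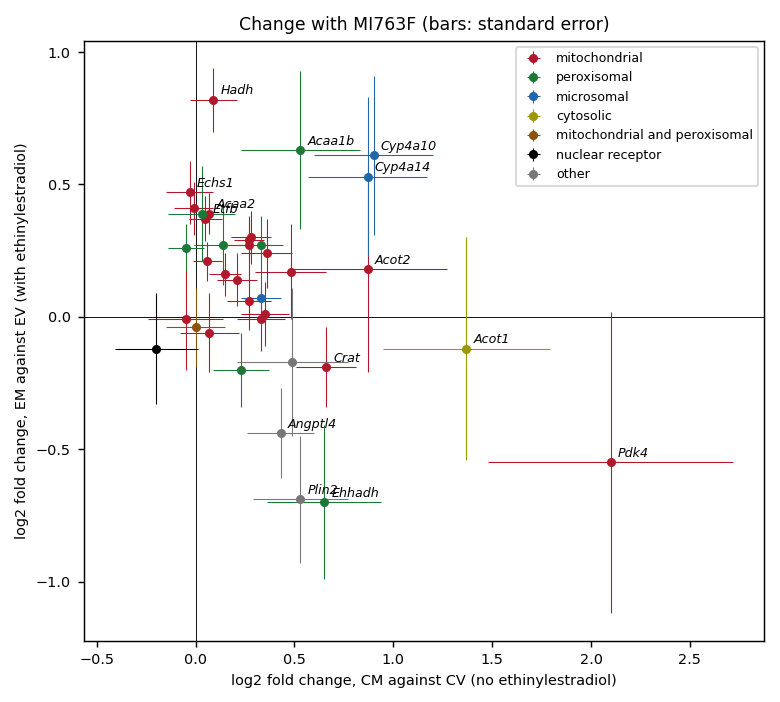
Log2 fold change with MI763F of the 37 members without EE (CM against CV, horizontal) and with EE (EM against EV, vertical), coloured by compartment, with bars for the standard error. Hadh stands highest on the vertical axis near 0 on the horizontal, Pdk4 and Acot1 stand far right with wide errors and below 0 on the vertical axis, and Plin2, Ehhadh and Angptl4 are right of 0 and below 0.

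Whether the ligand change depended on EE was tested by the interaction, the change from EV to EM minus the change from CV to CM. It called 0 of the 37 members by edgeR, where 0.132% of all genes were called. At an unadjusted p under 0.05, 6 members were more positive with EE and 7 more negative, against 8.09% and 5.53% of all genes. DESeq2, at the adjusted threshold, called 6 members, where it called 450 of all 12918 genes. Hadh had the smallest p (0.73 ± 0.17, adjusted p = 0.077), followed by Crat (-0.85 ± 0.21, adjusted p = 0.0921), Plin2 (-1.22 ± 0.33, adjusted p = 0.121) and Angptl4 (-0.87 ± 0.24, adjusted p = 0.122). Hadh changed by 0.09 ± 0.12 without EE and 0.82 ± 0.12 with it, and the difference did not pass. Crat stood at 0.66 without EE and -0.19 ± 0.15 with it. Without EM replicate 1, Hadh (0.804, adjusted p = 0.0311) and Plin2 (-1.47, adjusted p = 0.0311) were called in this test, where 208 of 12945 genes were.

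In ligand-treated mice, EE gave a like picture for the falls, while fewer members rose than with EE alone. In EM against CM, 29 members fell and 1, Ehhadh, rose, where 18.6% of all genes fell and 19.4% rose. With library totals 12 fell and 4 rose, namely Ehhadh, Plin2, Pex11a and Acaa1a, where 7.24% of all genes fell and 45.6% rose. The largest falls were Acot1 (-2.27 ± 0.43, adjusted p = 0.000982), Acot4 (-1.94 ± 0.18, adjusted p = 2.4e-06), Cyp4a10 (-1.63 ± 0.31, adjusted p = 0.000758) and Crat (-1.48 ± 0.15, adjusted p = 4.81e-06). Without CM replicate 2 Acot1 stood at -1.68 (adjusted p = 0.0014). For Acot1 and Crat the CM mean (104 ± 70 and 64.4 ± 13 CPM, SD, n = 4) was the highest of the 4 groups. Ehhadh was 0.99 ± 0.29 higher (adjusted p = 0.0144). Of the other members that EE alone raised, Pdk4 (0.30 ± 0.57), Plin2 (0.51 ± 0.24), Angptl4 (-0.08 ± 0.17) and Pex11a (-0.01 ± 0.14) did not pass. Calls of 4 members were lost without a library. They were Cpt1a (without EM replicate 4, -0.511, adjusted p = 0.0582), Eci2 (without CM replicate 1, -0.331, adjusted p = 0.0655), Acadm (without CM replicate 1, -0.514, adjusted p = 0.0562, CM replicate 2, -0.368, adjusted p = 0.114, EM replicate 1, -0.369, adjusted p = 0.105, or EM replicate 3, -0.523, adjusted p = 0.0559) and Slc25a20 (without CM replicate 1, -0.222, adjusted p = 0.131, EM replicate 1, -0.29, adjusted p = 0.0929, EM replicate 3, -0.302, adjusted p = 0.0802, or EM replicate 4, -0.305, adjusted p = 0.0785).

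With both agents, 17 members were lower than in CV and 4 higher, where 20% of all genes were lower and 20.7% higher (EM against CV). With library totals 6 were lower and 11 higher, where 7.74% of all genes were lower and 46.3% higher. Ehhadh (1.64 ± 0.3, adjusted p = 0.000481), Pdk4 (2.40 ± 0.62, adjusted p = 0.00693), Plin2 (1.04 ± 0.24, adjusted p = 0.00261) and Acot2 (1.07 ± 0.4, adjusted p = 0.0427) were higher. The Acot2 call was lost without CV replicate 1 (0.983, adjusted p = 0.104), CV replicate 2 (0.923, adjusted p = 0.111), CV replicate 4 (1.04, adjusted p = 0.088) or EM replicate 2 (0.595, adjusted p = 0.201). Acot4 was lowest (-1.90 ± 0.18, adjusted p = 2.26e-06), and Ppara stayed lower (-0.94 ± 0.21, adjusted p = 0.00223). The calls of Acaa1b (-0.94 ± 0.3, adjusted p = 0.0219), Eci2 (-0.48 ± 0.15, adjusted p = 0.0164) and Bdh1 (-0.47 ± 0.15, adjusted p = 0.0177) were lost with library totals. They were also lost without CV replicate 2 (Acaa1b -0.869, adjusted p = 0.053), CV replicate 3 (Acaa1b -0.794, adjusted p = 0.0662, and Eci2 -0.413, adjusted p = 0.0508), CV replicate 1 (Eci2 -0.399, adjusted p = 0.0549), CV replicate 4 (Bdh1 -0.412, adjusted p = 0.0548) or EM replicate 1 (Acaa1b -0.883, adjusted p = 0.0609).

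A wider list of 83 other genes of the same pathways, of which 80 were in the table, was read from the same fit. It too was chosen with earlier results of these data known. With EE 40 fell and 16 rose, with a median of -0.42, where 24.9% of all genes fell and 25.5% rose. With library totals 27 fell and 28 rose (median 0.06), where 10.3% of all genes fell and 54.6% rose. Acsm3, a medium-chain acyl-CoA synthetase, fell from 51.4 ± 5.4 to 7.4 ± 1.1 CPM (SD, n = 4; -2.80 ± 0.18, adjusted p = 1.71e-08). Sirt3, the mitochondrial deacetylase, fell from 83 ± 3.3 to 27.8 ± 3.3 CPM (-1.58 ± 0.12, adjusted p = 1.02e-07), and Hsd17b10, a mitochondrial dehydrogenase of branched and short-chain substrates, from 191 ± 5 to 93.6 ± 3.2 CPM (-1.03 ± 0.068, adjusted p = 2.65e-08). Cidec, a lipid droplet protein, rose from 1.01 ± 0.77 to 111 ± 19 CPM (6.75 ± 0.45, adjusted p = 4.42e-08), a fold that is approximate since CV was near 0. With MI763F in EE mice 2 of the 80 rose and 0 fell, where 1.51% of all genes rose and 0.178% fell. They were Hsd17b10 (0.40 ± 0.068, adjusted p = 0.00854, or adjusted p = 0.0531 with library totals) and Acsm3 (0.92 ± 0.17, adjusted p = 0.0148), both of them genes that EE had lowered. Without EE 1 of the 80 was called, where 0.0929% of all genes were. It was G0s2, an inhibitor of triglyceride lipase, which rose from 23.5 ± 4.7 to 56.4 CPM on average (1.26 ± 0.22, adjusted p = 0.0469, or adjusted p = 0.0611 with library totals), a gene named after its value was seen.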

How the data were processed

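Per the labels' protocols, poly(A) libraries of liver RNA came from a NEBNext Ultra kit, and STAR, Salmon and the GRCm39 build are named in the submitters' processing notes, without versions or roles. The sources used here name no annotation and no use of strand. Deposited was a table of estimated counts made by the authors, with whole numbers throughout. Among 731 genes at 0 in at least 1 library, of which 82.8% had an exon length, the smallest nonzero value had a median of 51.0 below 500 bp (n = 330) and 1 above 4000 bp (n = 49), so these deposited estimated counts are not plain reads. They were tested as counts without rounding. No pair of libraries had equal values for more than 1.85% of genes.

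Groups and replicate numbers came from the titles. Symbols came from GENCODE M21 (12692 identifiers matched) and promoter windows from RefSeq GRCm38.p6. The members and all lists were chosen with earlier results of these data known. Genes passing filterByExpr were scaled with TMM and fitted in edgeR 4.0.16 (R 4.3.3, glmQLFit, robust, 1 coefficient per group, 12 residual degrees of freedom), with Benjamini-Hochberg adjustment over the 12918 genes and 0.05 as the threshold. The SE is the log2 fold change over the square root of the test statistic, and the biological coefficient of variation was 0.284. Members given by library were the 5 largest rises and 5 largest falls called in EV against CV, the 4 smallest p in CM against CV, EM against EV and the interaction, and the fixed set Ppara, Cpt1a, Ehhadh, Acaa1b, Cyp4a10, Cyp4a14, Pdk4, Acot1, Acot4 and Plin2. Of the wider list, up to 4 were named by p in EV against CV and up to 2 in EM against EV. Alternatives were RLE factors, library totals, no filter, 1 CPM in 8 libraries, DESeq2 1.42.0, limma 3.58.1 with a trend (prior count 2), the groups compared alone, a replicate block and each library left out. The fit was tested on simulated counts. Figures were drawn with matplotlib 3.10.9.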

Additional observations from a re-analysis of the deposited data

Results flagged for a closer look

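In 7 of the 148 groups of 4 libraries (37 members in 4 groups), 1 library lay so far from the other 3 that its gap, as a share of the range, exceeded Dixon's 95% critical value. Chance gives about 1 in 20 groups. Of these, 3 were EM replicate 2 standing high. It held 94 CPM of Slc25a20 (others 77.5 to 79.4), 105 CPM of Decr1 (others 80.5 to 82.4) and 24 CPM of Acot2 (others 7.84 to 10.3). EM replicate 1 was low in Etfa, at 233 CPM (others 299 to 309.8), and EM replicate 3 was low in Hadhb, at 141 CPM (others 155 to 156). CM replicate 4 was high in Acads, at 136 CPM (others 129 to 129.8), and CM replicate 1 was low in Etfb, at 563 CPM (others 645 to 652).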

How the results depend on the processing

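Over the members' values in 6 comparisons, 3648 values under an alternative stayed on their side of the threshold, 96 dropped out of the calls, 46 came in and 21 that were called in either fit changed sign. A further 121, counted among the 3648, changed sign without being called in either fit, 18 of them with library totals. All 21 called changes of sign came with library totals, which move the median of all genes upward with EE. In EV against CV these were Acaa1a (0.166), Acadvl (0.199), Aldh3a2 (0.367), Bdh1 (0.0601), Cpt2 (0.366), Decr1 (0.0944), Eci2 (0.042), Etfdh (0.281), Hadha (0.0994), Hadhb (0.185) and Slc25a20 (0.381). In EM against CM they were Acadvl (0.101), Decr1 (0.0103), Hadhb (0.00403), Pex11a (0.368) and Slc25a20 (0.0608), and in EM against CV Acaa1a (0.322), Acadvl (0.249), Aldh3a2 (0.33), Decr1 (0.292) and Slc25a20 (0.333). Library totals also gave 16 called members in EM against CM in place of 30, 1 in place of 3 in EM against EV, 127 genes in place of 218 in EM against EV, and 26 genes in place of 17 in the interaction. Of the 29 members called in EV against CV, 16 were called in every alternative, as were 13 of 30 in EM against CM, 9 of 21 in EM against CV and 1 of 3 in EM against EV. DESeq2 called 221 genes in place of 12 in CM against CV, 559 in EM against EV and 450 in the interaction, with 4, 6 and 6 members (the interaction members being Angptl4, Crat, Ehhadh, Hadh, Pdk4 and Plin2). limma gave 30 genes in the interaction, and only the groups compared gave 2 in CM against CV. The cause of these differences between tools was not tested. Leaving out a library gave 4 to 39 genes in CM against CV (39 without CM replicate 4), 36 to 445 in EM against EV (445 without EM replicate 1) and 10 to 208 in the interaction (208 without EM replicate 1). Members then numbered 1 to 8 in EM against EV and 0 to 2 in the interaction.

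Libraries of the same replicate number did not deviate together over all genes (correlations -0.0524 to 0.0957, against -0.146 to 0.0919 for unlike numbers). A shared batch that moves few genes could not be seen this way. With the replicate block 6 genes were called in CM against CV, 260 in EM against EV and 79 in the interaction. Members among them were 5 in EM against EV (Hadh, Acaa2, Echs1, Etfa and Eci1) and 1 in the interaction (Hadh). Etfb was then lost in EM against EV (0.366, adjusted p = 0.0612). The interaction uses all groups, so it has no fit over only the groups compared. With 4 libraries a group, small changes fall below what the test can call, and differences of members that did not pass were not shown to be absent.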

Other observations

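Other genes of fatty acid handling, named after their values were seen, moved with EE as follows. Fabp1, the fatty acid binding protein of liver, fell from 7395 ± 942 to 1780.3 ± 548 CPM (SD, n = 4), a log2 change of -2.05 ± 0.21 (SE) with an adjusted p = 1.16e-06 by edgeR, and the long-chain acyl-CoA synthetase Acsl1 from 274 ± 50 to 85.2 ± 11 CPM (-1.68 ± 0.15, adjusted p = 3.15e-07). The peroxisomal thioesterase Acot3 fell from 72.4 ± 26 to 1.43 ± 0.62 CPM (-5.68 ± 0.51, adjusted p = 7.28e-07). Upward, the fatty acid translocase Cd36 rose from 64.9 ± 16 to 119 ± 15 CPM (0.87 ± 0.16, adjusted p = 0.000382) and the monocarboxylate transporter Slc16a1, which carries ketone bodies, from 15 ± 3.4 to 42.2 ± 2.9 CPM (1.49 ± 0.21, adjusted p = 3.32e-05). Macrophages and endothelial cells also express Cd36, and their markers rose in the same libraries, whose part was not tested.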
